A study of Mus musculus with 36 samples.

Results

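The mitochondrial ribosomal protein genes were taken as the protein-coding genes whose symbol starts with Mrpl or Mrps followed by a digit, after mapping of Ensembl identifiers on the mouse genome build GRCm38. The rule gave 78 genes. Of these, 77 were in both count tables, that of the liver (14052 genes) and that of epididymal white adipose tissue, or eWAT (16690 genes). The tables share 13206 genes. Mrpl53 was in neither table, and in the annotation it shares 88.0% of its exon bases with Gm42688 on the same strand. No value in these tables was used to choose the genes. By role, 51 of the 78 belong to the large subunit and 26 to the small subunit, and Mrps36 belongs to neither, since its product is known as a component of the 2-oxoglutarate dehydrogenase complex.

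All animals were wild-type C57BL/6 male F0 mice, 24 weeks old, that ate chow until week 6. The LF group then ate a low-fat diet for 18 weeks, the HF group ate a high-fat diet for 18 weeks, and the HFLF group ate the high-fat diet for 9 weeks and the low-fat diet for the next 9 weeks. Liver and eWAT were each sequenced in 6 libraries per diet, 36 libraries in all. The labels do not say whether each library is a separate mouse or whether a liver and an eWAT library with the same number share a mouse, so the p-values measure the spread between these libraries, which may in part be technical.

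Mitochondria keep a ribosome of their own, built from 2 ribosomal RNAs encoded in mitochondrial DNA and from proteins that are encoded in the nucleus, made in the cytosol and imported. This ribosome translates the few mitochondrially encoded messages, which all specify subunits of the respiratory chain and of ATP synthase. Many of its proteins have a bacterial counterpart, and the others are specific to mitochondria. In liver and in fat cells, respiratory capacity is tied to the oxidation of fatty acids and to lipid storage.

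Library totals ran from 11662551 to 23295485 counts in liver and from 8941798 to 31186477 in eWAT. Levels are given as CPM, counts per 1000000 counts of the library, after TMM scaling, which adjusts the library totals for composition within a tissue. Differences are log2 fold changes ± SE from edgeR's quasi-likelihood test, and a gene was called at a Benjamini-Hochberg adjusted p under 0.05 over all genes of the table. The tissue labels were checked against markers. The 6 hepatocyte markers summed to 70200 to 112000 CPM across the liver libraries, and the 6 adipocyte markers summed to 11600 to 31200 CPM across the eWAT libraries, with all of them in the respective table. An earlier analysis of these data set apart LF 1 to 4 in liver and 6 eWAT libraries. The latter are LF 3, with 218 CPM of epididymal markers, LF 5, with 1010 CPM of hepatocyte markers, and LF 4, HF 1, HFLF 4 and HFLF 6. Calls of named genes that change without the 4 liver or the 6 eWAT libraries are given both ways.

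The members lie on 17 chromosomes, and many stand close to another gene. Starts were counted that lay within 1000 bases of the start of another protein-coding gene on the opposite strand. The genes of a pair had to point away from each other without crossing. Such a partner was found for 18 of the 78 members (23.1%), against 9.19% of all protein-coding genes of either table. Mrpl46 and Mrps11 also start close together on opposite strands, but they cross, sharing 173 exon bases, and were not counted. Mrps12, which encodes the counterpart of the bacterial decoding-centre protein S12, starts 172 bases from Sars2, which encodes the mitochondrial seryl-tRNA synthetase. Mrps27 starts 81 bases from Ptcd2, and Mrpl49 starts 59 bases from Fau. In 33 members exon bases are shared with another gene, and in 15 the share is at least 10% with a gene that is in a table. The 15 include Mrpl53, which is in neither table. Apart from it, the largest such shares were 69.8% for Mrps25 with Nr2c2, 63.4% for Mrps34 with Mapk8ip3 and 36% for Mrpl19 with Gcfc2. These 3 pairs lie on opposite strands. No source used here says whether the counting used strand, so values of these members may hold reads of the neighbour.

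Promoter windows of 300 bases, from 250 before to 50 after the RefSeq start on GRCm38.p6, were matched for 69 of the 78 members; Mrpl13, Mrpl15, Mrpl19, Mrpl38, Mrpl4, Mrpl54, Mrps28, Mrps34 and Mrps35 had no entry. They were searched on both strands for 3 short motifs of factors known to bind promoters of nuclear genes for mitochondrial proteins: CGCATGCG for NRF1, CCGGAAG for ETS factors such as GABP, and AAGATGGC for YY1. The ETS and YY1 letters can overlap by the AAG that both hold, and a match is a description of the letters, not a binding site. The 69 members had 75 windows, and a gene was counted once if any of its windows held a match. CGCATGCG was found for 10.1% of the 69 members against 3.84% of 11641 protein-coding genes in either table. CCGGAAG was in 37.7% against 17.8%, and AAGATGGC was in 17.4% against 4.68%. Any of the 3 was in 38 of 69 members, or 55.1%, against 24.1% of all genes. Among the 12 members with AAGATGGC, 8 (66.7%) had a match after the start, against 53.9% of the 545 genes that hold it.

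The 5 windows printed here show how differently these starts are built in genes that the diet comparisons name, from both ETS and YY1 letters to none of the 3. Each runs 5′ to 3′ on the gene's strand, from 250 bases before to 30 bases after the start, and capitals mark the motif matches on either strand. Mrps18a lies at chr17:46110754-46111033 (+), Mrpl9 at chr3:94443086-94443365 (+), Mrps27 at chr13:99344536-99344815 (+), Mrpl49 at chr19:6057726-6058005 (-) and Mrpl45 at chr11:97315466-97315745 (+).
Mrps18a: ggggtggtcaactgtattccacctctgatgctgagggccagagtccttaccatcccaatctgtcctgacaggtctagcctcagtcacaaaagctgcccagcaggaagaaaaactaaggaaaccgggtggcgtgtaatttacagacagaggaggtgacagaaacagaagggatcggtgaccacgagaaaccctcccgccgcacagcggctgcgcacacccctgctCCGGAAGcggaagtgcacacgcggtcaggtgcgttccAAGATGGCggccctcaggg
Mrpl9: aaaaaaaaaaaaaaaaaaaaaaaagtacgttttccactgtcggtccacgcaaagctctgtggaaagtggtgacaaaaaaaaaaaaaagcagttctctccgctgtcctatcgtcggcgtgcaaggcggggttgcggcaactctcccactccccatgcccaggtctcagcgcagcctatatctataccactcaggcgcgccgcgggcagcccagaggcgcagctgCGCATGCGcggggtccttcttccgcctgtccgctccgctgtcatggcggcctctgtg
Mrps27: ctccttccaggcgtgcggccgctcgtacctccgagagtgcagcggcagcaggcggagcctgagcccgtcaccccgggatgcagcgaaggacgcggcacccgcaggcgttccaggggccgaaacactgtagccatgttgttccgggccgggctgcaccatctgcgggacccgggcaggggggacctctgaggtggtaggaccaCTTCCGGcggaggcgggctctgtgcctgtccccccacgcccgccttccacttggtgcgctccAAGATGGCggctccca
Mrpl49: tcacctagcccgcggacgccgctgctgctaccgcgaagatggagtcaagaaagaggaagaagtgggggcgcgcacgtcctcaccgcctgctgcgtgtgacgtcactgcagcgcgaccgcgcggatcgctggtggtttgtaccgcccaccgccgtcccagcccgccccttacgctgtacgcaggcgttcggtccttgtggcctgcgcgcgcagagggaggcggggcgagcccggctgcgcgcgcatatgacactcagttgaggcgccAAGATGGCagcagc
Mrpl45: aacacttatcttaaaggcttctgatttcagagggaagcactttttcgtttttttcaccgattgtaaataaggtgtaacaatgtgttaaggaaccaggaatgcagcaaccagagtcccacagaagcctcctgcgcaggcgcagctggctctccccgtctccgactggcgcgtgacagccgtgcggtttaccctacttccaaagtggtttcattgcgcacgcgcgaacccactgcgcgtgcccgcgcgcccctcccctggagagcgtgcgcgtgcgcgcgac
The Mrps18a and Mrps27 windows hold both an ETS match before the start and a YY1 match just after it. The Mrpl9 window holds the NRF1 letters, the Mrpl49 window holds the YY1 letters only, and the Mrpl45 window holds none of the 3.

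Members differed widely in level within each tissue. Per kilobase of exon, LF means ran from 1.0 to 63.6 CPM in liver, with a median of 10.6, and from 1.66 to 64.9 CPM in eWAT, with a median of 13.5. Highest in liver over all diets were Mrpl12, the counterpart of the bacterial stalk protein L7/L12, at 64.8 CPM per kilobase, Mrpl34 at 60.1 and Mrpl14 at 49.6. The lowest in liver were Mrps30 at 2.04 CPM per kilobase, Mrps25 at 1.68 and Mrpl23 at 1.12. In eWAT the highest were Mrps21 at 64.2 CPM per kilobase, Mrpl34 at 57.3 and Mrps6 at 50.2, and the lowest were Mrps35 at 2.58, Mrpl47 at 2.45 and Mrpl23 at 1.62. Mrpl34 was thus among the 3 highest, and Mrpl23 the lowest, in both tissues. Exon length here is the union of all annotated exons of a gene, so a long annotation lowers this value. The members named as lowest had from 4419 (Mrpl47) to 8631 (Mrps35) exon bases. Those named as highest had from 607 (Mrpl34) to 1533 (Mrps6). The part of annotated length in this order was not tested. As a share of all counts, without TMM scaling, the 77 members took 2127 to 2475 CPM across the liver libraries. In eWAT the members took between 2681 and 3006 CPM in LF (median 2902), between 2324 and 2781 in HF (median 2573) and between 2504 and 3011 in HFLF (median 2717). The ranges of the 3 diets overlapped.

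**Figure D1:**
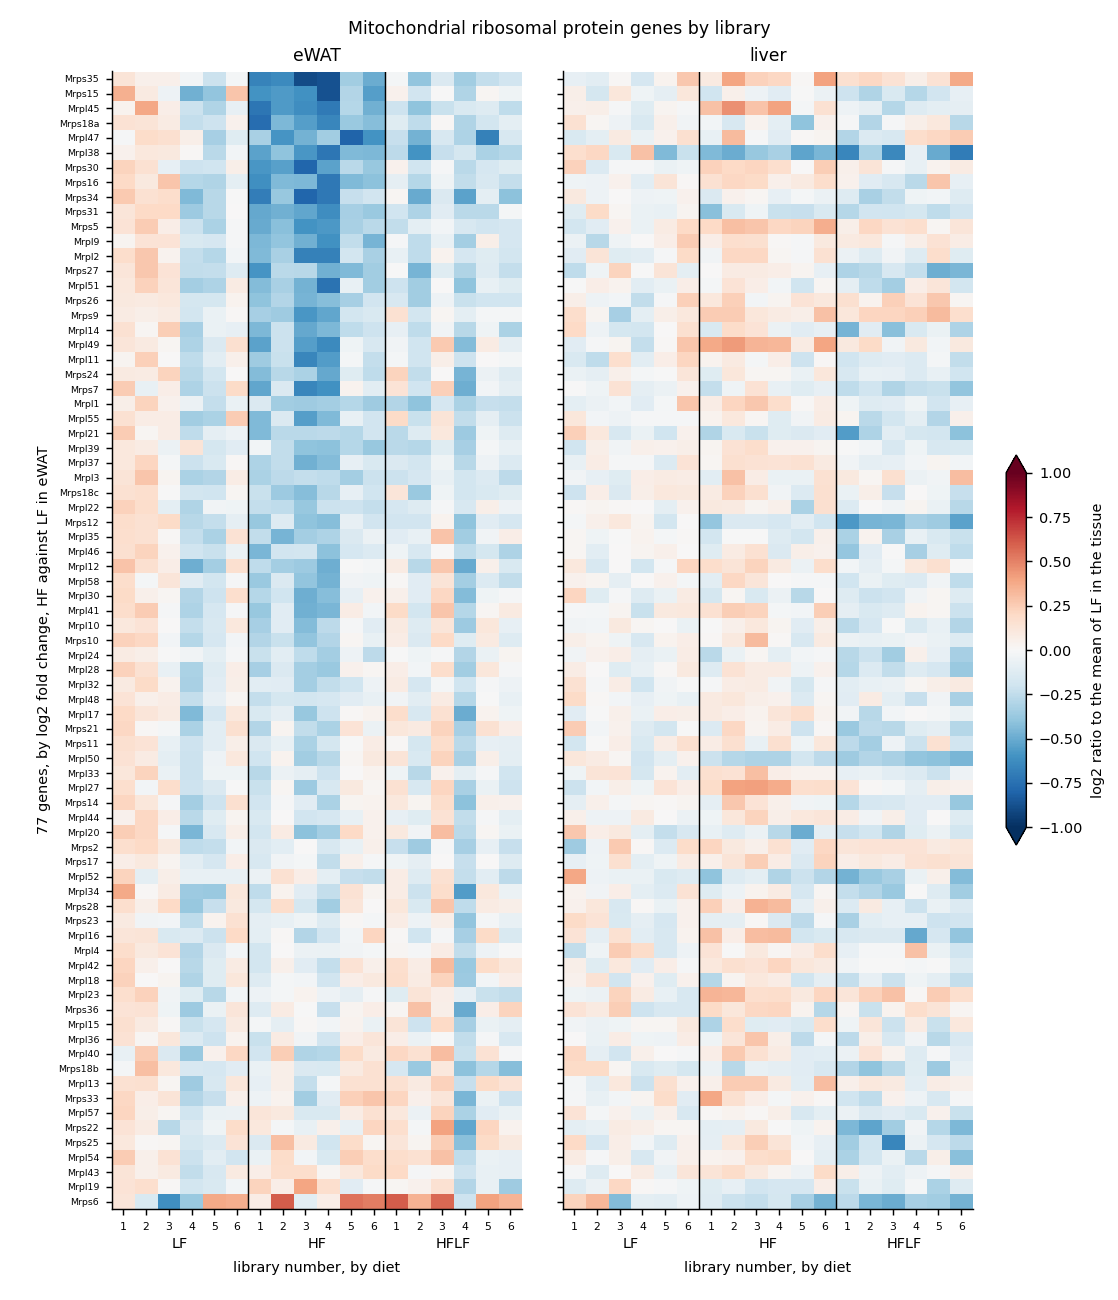
Heat map of the log2 ratio of each of the 77 genes (rows, ordered by log2 fold change of HF against LF in eWAT) to its mean in the 6 LF libraries of the tissue, with 18 libraries per tissue as columns, blue for lower and red for higher. In eWAT the HF columns are blue over the upper rows and most strongly so in HF 3 and HF 4, while the liver columns show single rows that differ, such as Mrpl38, Mrpl50 and Mrps12.

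In eWAT, 31 of the 77 mitochondrial ribosomal protein genes were lower on the high-fat diet than on the low-fat diet. None was higher in HF than in LF, where 20.2% of all genes were called lower and 20.6% higher. The median log2 fold change of the members was -0.20, against -0.02 for all genes, and 68 of the 77 had a negative value. Both subunits took part: 19 of 50 large-subunit members and 12 of 26 small-subunit members were lower. So did both kinds of origin, with 17 of 46 members that have a bacterial counterpart and 14 of 31 mitochondria-specific ones. In bulk tissue, fewer cells of a type and less RNA per cell cannot be told apart.

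The smallest p belonged to Mrps35, which encodes a mitochondria-specific protein of the small subunit and lies on chromosome 6 from 147042764 to 147073991 on the + strand of GRCm38. In eWAT, Mrps35 had 23.0 CPM in the lowest, 27.1 in the median and 29.4 in the highest LF library, and 14.2, 16.9 and 21 CPM in HF. No HF library reached the lowest LF library, and the difference was -0.65 ± 0.097 (adjusted p = 0.000111). Mrps15, the counterpart of bacterial S15, had 41.9, 59.7 and 75.5 CPM in LF and 31.9, 39.0 and 48.0 in HF, with an overlap between the groups, and fell by 0.58 ± 0.13 (adjusted p = 0.00269). Mrps16, the counterpart of S16, had 23.3, 28.9 and 35.1 CPM in LF and 17.4, 21.0 and 21.5 in HF, with no overlap, and fell by 0.52 ± 0.099 (adjusted p = 0.000662). Mrps5, the counterpart of S5, had 28.7, 36.4 and 42.8 CPM in LF and 23.5, 25.9 and 29.6 in HF, and only the lowest LF library fell within the HF range. Its difference was -0.45 ± 0.090 (adjusted p = 0.00094).

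In the large subunit, Mrpl38 (chromosome 11, 116131817 to 116138868, - strand) had 49.9, 61.6 and 65.0 CPM in the lowest, median and highest LF library of eWAT and 36.3, 42.7 and 45.4 in HF. The groups did not overlap, and the difference was -0.53 ± 0.079 (adjusted p = 0.00012). Mrpl9 (chromosome 3, 94443318 to 94451130, + strand), the counterpart of bacterial L9, had 55.0, 62.4 and 68.3 CPM in LF and 40.6, 45.1 and 52.2 in HF, again without overlap, and fell by 0.44 ± 0.080 (adjusted p = 0.000456). Mrpl45 (chromosome 11, 97315716 to 97329920, + strand), whose product sits at the exit of the nascent chain and helps to hold the ribosome at the inner membrane, had 36.2, 43.9 and 58.6 CPM in LF and 26.9, 29.4 and 36.6 in HF. The ranges of Mrpl45 overlapped at the edge, and it fell by 0.56 ± 0.10 (adjusted p = 0.00052). Mrps30 (chromosome 13, 118378381 to 118387252, - strand), a large-subunit protein despite its symbol, had 21.7, 25.0 and 29.5 CPM in LF and 14.3, 17.2 and 20.8 in HF, without overlap, and fell by 0.52 ± 0.097 (adjusted p = 0.000542).

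The Mrps18 paralogs differed in what passed the test. Mrps18a (chromosome 17, 46110986 to 46128910, + strand), whose product is in the large subunit, had 37.1, 45.7 and 48.4 CPM in LF and 25.6, 30.8 and 33.7 in HF, without overlap, and fell by 0.54 ± 0.086 (adjusted p = 0.000172). Mrps18c, of the small subunit, had 17.4, 20.2 and 22.6 CPM in LF and 14.8, 16.8 and 18.9 in HF, and fell by 0.27 ± 0.091 (adjusted p = 0.0278), a call that ended without LF 1, LF 2, HF 2, HF 3 or HF 4 (highest adjusted p 0.0695). Mrps18b, also of the small subunit, had 17.3, 18.6 and 24.1 CPM in LF and 17.5, 19.5 and 21.8 in HF, a difference of 0.00 ± 0.11 (adjusted p = 0.983) whose sign depended on the scaling. In the annotation, Mrps18b shares 30.5% of its exon bases with Gm16279 on the opposite strand. Mrps18c shares 23.2% of its exon bases with Gm43511 on the same strand. The difference between the paralogs was not tested.

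All 6 libraries of HF were below all 6 of LF in 8 of the 77 members, or 10.4%, where 6.39% of all genes were. These were Mrps35, Mrpl38, Mrps18a, Mrpl9, Mrps30, Mrps16, Mrps26 and Mrps27. The other lower members had differences from -0.58 to -0.20, the latter for Mrpl24. Mrps12 was near the threshold, with 30.8, 38.5 and 42.9 CPM in LF and 27.8, 30.7 and 35.4 in HF (-0.26 ± 0.10, adjusted p = 0.0429), and its call ended without LF 1, LF 2, LF 3, HF 1, HF 3 or HF 4 (highest adjusted p 0.106) and in a fit of only the 2 groups (0.0826).

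Of the members that were not called, Mrps6, the counterpart of bacterial S6, and Mrps7, the counterpart of S7, had the largest differences. Mrps6 had 42.6, 65.1 and 84.9 CPM in LF and 60.8, 81.1 and 99.7 in HF (0.31 ± 0.18, adjusted p = 0.188), the highest value among the 77. Mrps7 had 68.2, 84.4 and 101 CPM in LF and 53.7, 67.8 and 86.8 in HF, with a wide overlap (-0.31, adjusted p = 0.0956). Mrpl12 had 57.3, 87.1 and 98.2 CPM in LF and 57.2, 65.4 and 80.5 in HF (-0.23 ± 0.15, adjusted p = 0.215), and it was called without the 6 eWAT libraries that stand apart (-0.43, adjusted p = 0.0316). Mrpl54 (0.07 ± 0.11, adjusted p = 0.644) and Mrps36 (-0.03 ± 0.13, adjusted p = 0.884) did not pass the test either, and the sign of Mrps36 turned under library totals alone.

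**Figure D2:**
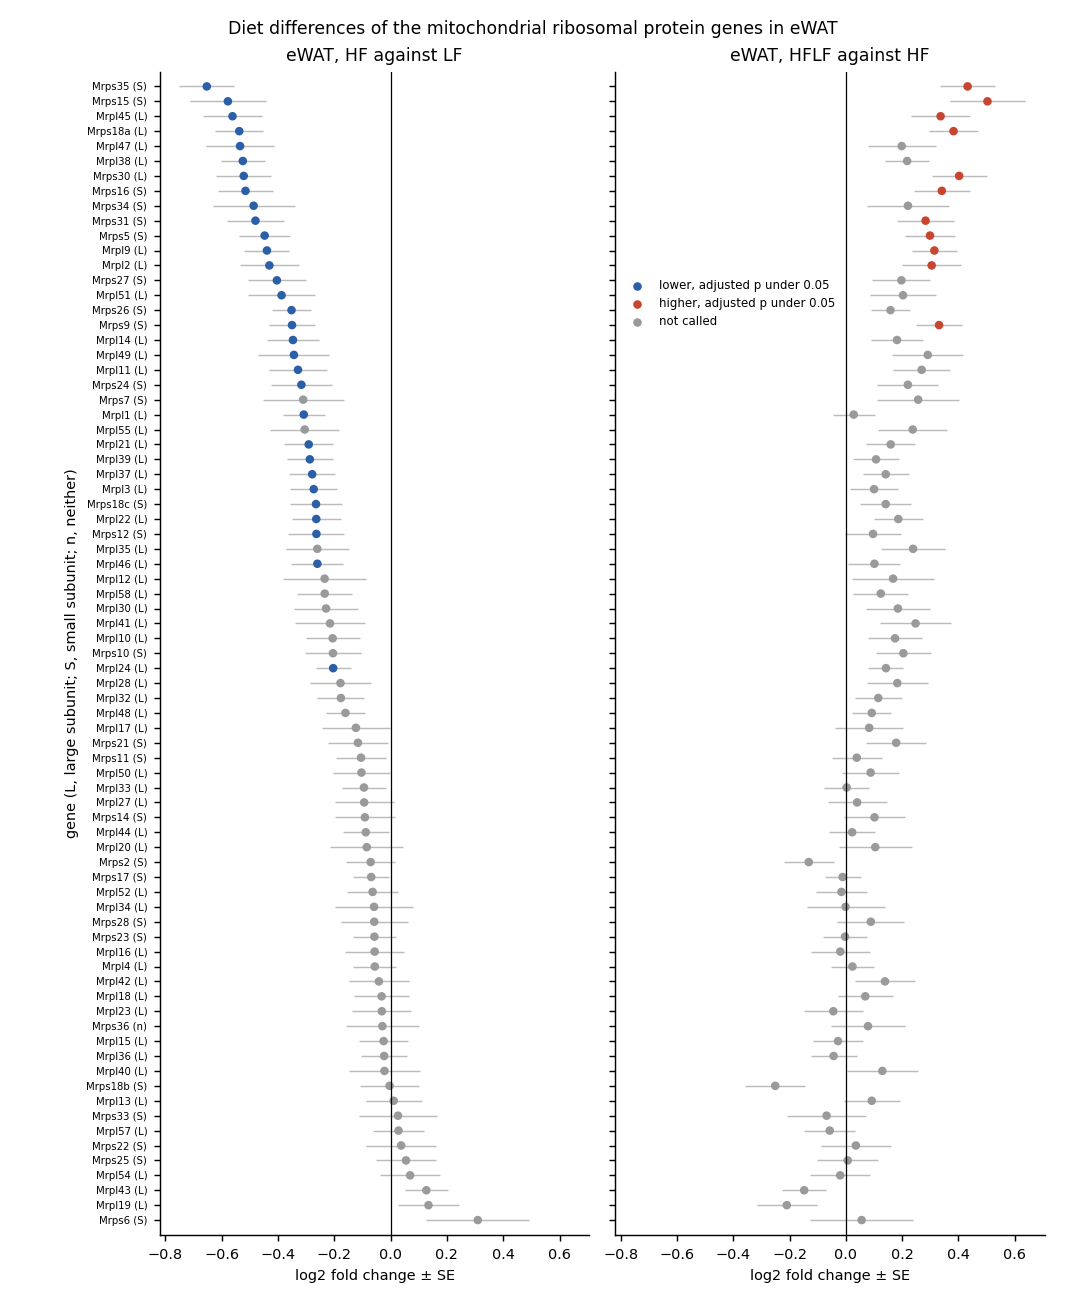
Log2 fold change ± SE of each of the 77 genes in eWAT, HF against LF on the left and HFLF against HF on the right, with genes in the order of the left panel and colour for an adjusted p under 0.05. On the left 31 genes are lower and none is higher; on the right 11 are higher and none is lower, and both panels use the same 6 HF libraries.

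Macrophage marker sums and the brown adipocyte marker Cidea did not overlap between LF and HF in eWAT. The summed level of Adgre1, Cd68, Trem2, Gpnmb and Itgax, all 5 in the table and none at 0 in any library, lay between 82.3 and 106 CPM in the LF libraries (median 96.5). In HF it lay between 406 and 6910 CPM (median 2230), and in HFLF between 204 and 1350 (median 304). The adipocyte marker sum lay between 17400 and 31200 CPM in the LF libraries, between 11600 and 29100 in HF, and between 21100 and 28200 in HFLF. The 4 stromal markers had medians of 1660 CPM in LF, 2670 in HF and 1830 in HFLF. Of 2 brown adipocyte markers only Cidea was in the table. Its CPM ranged from 5.65 to 8.57 on the low-fat diet and from 1.1 to 3.11 on the high-fat diet, which did not overlap, and from 3.18 to 6.52 after the change back. Among the HF libraries, the median log2 ratio of the 77 members to their LF mean was -0.34 in HF 3, with 6910 CPM of macrophage markers, and -0.31 in HF 4, with 4260 CPM. It was -0.25 in HF 1, with 3100 CPM, and -0.13 in HF 2, with 1360 CPM. The ratio was -0.07 in HF 5, with 406 CPM, and -0.06 in HF 6, with 785 CPM. The 3 HF libraries with the most macrophage marker RNA thus had the lowest member ratios, and they also had the lowest adipocyte marker sums of HF, with 11640 CPM in HF 3, 15700 in HF 4 and 17010 in HF 1. LF 4, at 85.6 CPM of these markers, had a ratio of -0.25, and HFLF 4, at 298 CPM, had -0.30. Their TMM factors, 1.133 and 1.072, were the largest of their diets in eWAT. Without TMM scaling the members took 2754 CPM in LF 4, within the LF range of 2681 to 3006. In HFLF 4 they took 2504, the lowest of HFLF. These 2 libraries had the lowest adipocyte marker sums of their diets, 17440 CPM in LF 4 and 21110 in HFLF 4. The part of these marker changes in the members' result was not tested.

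**Figure D3:**
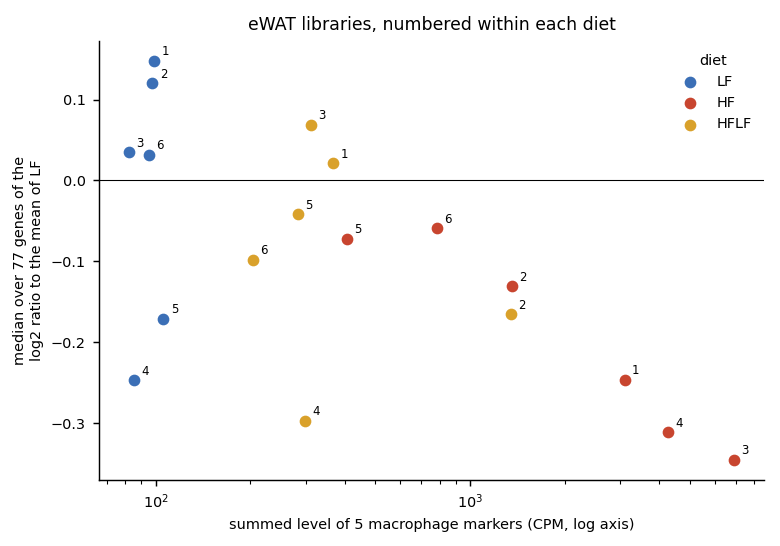
The 18 eWAT libraries, numbered within each diet, by the summed level of 5 macrophage markers (CPM, log axis) and by the median over 77 genes of the log2 ratio to the mean of LF. HF 3, HF 4 and HF 1 lie at the lower right, while LF 4 and HFLF 4 have low ratios, -0.25 and -0.30, at 85.6 and 298 CPM of the markers; adipocyte markers, not plotted, are lowest within each diet in HF 3, LF 4 and HFLF 4.

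The count for HF against LF in eWAT was 27 to 37 under every alternative that kept all libraries, and 24 to 37 with 1 library left out. Without the 6 eWAT libraries that stand apart it was 40, which included all 31, with a median of -0.30. The shares of all genes called under these settings are not given here.

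After the change back to the low-fat diet, part of the members stood higher in eWAT than on the continued high-fat diet. In HFLF against HF, 11 of 77 members were higher and none was lower, where 10.7% of all genes were called higher and 14.7% lower. The share of members called higher, 14.3%, was near that background. The members' median was 0.12, against 0.00 for all genes, and 62 of 77 were positive. The 11 were Mrps35, Mrps30, Mrps18a, Mrps9, Mrps15, Mrps16, Mrps5, Mrps31, Mrpl9, Mrpl45 and Mrpl2, of which 6 belong to the small and 5 to the large subunit. This comparison shares its HF libraries with that of HF against LF.

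Mrps18a had 35.5, 39.3 and 44.2 CPM in the lowest, median and highest HFLF library, all above the highest HF library at 33.7, a difference of 0.38 ± 0.086 (adjusted p = 0.00494). Mrps35 had 20.3, 23.0 and 26.5 CPM in HFLF, with an overlap at the bottom with HF (0.43 ± 0.097, adjusted p = 0.00503). Mrps30, at 20.8, 22.8 and 25.9 CPM, met the HF range at its edge (0.40 ± 0.097, adjusted p = 0.00729). Mrps9, the counterpart of bacterial S9, had 24.9, 29.5 and 33.8 CPM in HF and 33.1, 37.1 and 41.9 in HFLF, with a small overlap (0.33 ± 0.080, adjusted p = 0.00733). Mrpl9 had 48.9, 57.0 and 64.7 CPM in HFLF (0.31 ± 0.080, adjusted p = 0.00936), and Mrps15 had 47.7, 57.9 and 60.7 (0.50 ± 0.13, adjusted p = 0.012). All 6 were called in each of the 12 fits that left out 1 library. The count became 7 without HF 3, HF 4 or HFLF 3. Of the members that were not called, Mrpl49 had a difference of 0.29 (adjusted p = 0.0988) and Mrpl11 one of 0.27 (adjusted p = 0.0597; called with DESeq2, 0.0414, and limma voom, 0.0245). Without the 6 eWAT libraries that stand apart 6 members were called, and Mrps9 was not (0.35, adjusted p = 0.0504).

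Between HFLF and LF in eWAT, no member was called by edgeR, where 0.342% of all genes were called higher and 0.222% lower. An unadjusted p under 0.05 was found for 9 members, DESeq2 called 2 and limma voom called 3, and edgeR called 2 without LF 5. Over the 77 members the median was -0.07, against -0.02 for all genes. Mrps6 had 56.5, 84.8 and 99.7 CPM in HFLF (0.37 ± 0.18, adjusted p = 0.296), and Mrpl47, the counterpart of bacterial L29, had 10.3, 13.3 and 15 CPM in LF and 8.01, 10.8 and 11.7 in HFLF (-0.34 ± 0.12, adjusted p = 0.165). The ranges overlapped in both. Mrpl38 stayed closer to HF in its median, with 39.6, 49.7 and 53.3 CPM in HFLF, and missed the threshold against both LF (-0.31 ± 0.079, adjusted p = 0.0748) and HF (0.22 ± 0.079, adjusted p = 0.0523).

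In liver the high-fat diet moved single members in both directions. Against LF, 7 of 77 members were higher in HF and 4 were lower, where 16.3% of all genes were called higher and 18.5% lower, so the members' shares, 9.09% and 5.19%, lay below the background. Their median was 0.04, against 0.00 for all genes. Under library totals alone the median of all genes moved by 0.10 and the split became 22 higher and 2 lower, and with upper-quartile factors 20 and 2. The median of the members relative to all genes was 0.04 under TMM, upper-quartile factors and library totals. The hepatocyte markers summed to between 83200 and 112000 CPM in LF, between 70200 and 87500 in HF and between 77000 and 88200 in HFLF, and their part in these results was not tested.

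Of the higher members in liver, Mrpl27, the counterpart of the bacterial L27 protein near the peptidyl transferase centre, had 24.6, 28.9 and 31.5 CPM in LF and 32.2, 34.9 and 38.1 in HF. The groups did not overlap, and the difference was 0.29 ± 0.068 (adjusted p = 0.00345). Mrps5 had 28.1, 31.7 and 36.7 CPM in LF and 36.8, 38.1 and 41.2 in HF, also without overlap (0.27 ± 0.064, adjusted p = 0.00397). Mrpl49, a mitochondria-specific protein gene, had 20.2, 23.9 and 29.1 CPM in LF and 25.3, 30.9 and 32.4 in HF, with an overlap (0.34 ± 0.079, adjusted p = 0.00391). Mrpl45 had 23.6, 25.9 and 26.8 CPM in LF and 25.4, 31.6 and 35.5 in HF (0.28 ± 0.071, adjusted p = 0.00707). Mrps35 (0.23, adjusted p = 0.0411) and Mrpl42 (0.14, adjusted p = 0.0432) were near the threshold. With 1 library left out, Mrps35 lost its call without LF 1, LF 2, LF 3, LF 4, HF 2, HF 3, HF 4 or HF 6 (highest adjusted p 0.103), and Mrpl42 without LF 2, LF 4, LF 6, HF 1, HF 2, HF 3 or HF 4 (highest adjusted p 0.108).

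Lower on the high-fat diet in liver were Mrpl50 and Mrpl38, both mitochondria-specific proteins of the large subunit, and Mrps31 and Mrps12. Mrpl50 had 44.9, 52.4 and 55.6 CPM in LF and 41.2, 42.3 and 45.0 in HF, ranges that met at the edge (-0.26 ± 0.056, adjusted p = 0.00207). Mrpl38 had 81.7, 113 and 136 CPM in LF and 77, 81 and 88.5 in HF (-0.44 ± 0.12, adjusted p = 0.01), so its LF libraries were widely spread and the lowest of them lay among HF. Mrps31 (-0.20, adjusted p = 0.0231) lost its call without LF 2 or HF 1 (highest adjusted p 0.0667), and Mrps12 (-0.19, adjusted p = 0.025) without LF 2, LF 3 or HF 1 (highest adjusted p 0.0621). Both were also not called with upper-quartile factors (adjusted p = 0.118 and 0.134) or library totals (0.185 and 0.252). The count of 11 became 6 without LF 2 and 7 without HF 1. Mrps6 (-0.27, adjusted p = 0.075) and Mrpl52 (-0.24, adjusted p = 0.0789) were not called. Without LF 1 to 4, which leaves 2 LF libraries, no member was called in HF against LF or in HFLF against LF. Of the 10 members named for HF against LF, Mrpl38 then had a difference of -0.11 (adjusted p = 0.708), Mrps35 one of 0.08 (0.767), Mrps5 one of 0.13 (0.368) and Mrpl49 one of 0.19 (0.323). Mrps12 had -0.10 (0.577), Mrps31 -0.17 (0.284), Mrpl42 0.11 (0.375), Mrpl27 0.19 (0.26), Mrpl45 0.27 (0.194) and Mrpl50 -0.23 (0.0802). Without LF 1 and 2 alone, Mrpl38 had -0.33 (adjusted p = 0.0793), Mrps35 0.19 (0.178), Mrpl42 0.12 (0.119), Mrps31 -0.18 (0.064) and Mrps12 -0.18 (0.0807).

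After the change back to the low-fat diet, 15 of the 77 members in liver were lower than in LF mice and none was higher in HFLF, where 12.4% of all genes were called lower and 10.2% higher. Their median was -0.11, against 0.00 for all genes. The 15 held 10 of 26 small-subunit members and 5 of 50 large-subunit members, and this difference between subunits was not tested. Library totals alone gave 6 higher and 4 lower members, and upper-quartile factors 1 and 7. The median of the members relative to all genes was -0.11 under each of the 3 scalings.

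Mrps12 had the smallest p, with 40.6, 46.6 and 49.8 CPM in the lowest, median and highest LF library of the liver and 30.8, 33.3 and 36.5 in HFLF. The groups did not overlap, and the difference was -0.46 ± 0.063 (adjusted p = 0.000388). Mrpl50 had 37.2, 39.3 and 41.7 CPM in HFLF, all below LF (-0.38 ± 0.056, adjusted p = 0.000694). Mrps22, a mitochondria-specific protein gene of the small subunit, had 16.2, 17.6 and 18.4 CPM in LF and 11.9, 13.1 and 17 in HFLF, and only the highest HFLF library lay within the LF range (-0.35 ± 0.078, adjusted p = 0.00478). Mrps7 had 72.3, 75.7 and 85.0 CPM in LF and 58.6, 64.9 and 66.9 in HFLF, without overlap (-0.27 ± 0.063, adjusted p = 0.00645). Mrps27 had 23.5, 27.5 and 32.8 CPM in LF and 19.8, 22.9 and 25.0 in HFLF (-0.32 ± 0.077, adjusted p = 0.0075). Mrpl38 had 68.3, 74.5 and 105 CPM in HFLF (-0.47 ± 0.12, adjusted p = 0.012). All 6 were called in each of the 12 fits with 1 library left out, and the count was 8 without HFLF 1. Without LF 1 and 2, Mrpl38 had -0.36 (adjusted p = 0.0872), and without LF 1 to 4 it had -0.13 (0.688). The other 5 then had -0.37 (Mrps12, adjusted p = 0.0887), -0.35 (Mrpl50, 0.0595), -0.37 (Mrps22, 0.156), -0.26 (Mrps7, 0.192) and -0.34 (Mrps27, 0.131). Under library totals alone Mrps7 (adjusted p = 0.067) and Mrps27 (0.0746) were not called. Mrps25 (-0.28, adjusted p = 0.0533; called with DESeq2, 0.0409, and limma voom, 0.0426) and Mrpl52 (-0.26, adjusted p = 0.0737) were not called.

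Between HFLF and HF in liver, 10 of 77 members were lower and none was higher, where 3.05% of all genes were called lower and 2.18% higher. Their median was -0.14, against 0.00 for all genes, and 70 of 77 were negative. This comparison uses none of the LF libraries, and shares its HFLF and HF libraries with the comparisons against LF. Mrpl45 had 25.4, 31.6 and 35.5 CPM in HF and 21.1, 24.0 and 24.8 in HFLF, without overlap (-0.40 ± 0.072, adjusted p = 0.00725). Mrps27, whose product carries helical repeats of a kind known from RNA-binding proteins, had 26.4, 29.0 and 29.7 CPM in HF, all above HFLF (-0.35 ± 0.077, adjusted p = 0.0177). Both were called in each of 12 fits with 1 library left out. Mrps22 (-0.34, adjusted p = 0.0232) stayed called in 9 of these fits, Mrps12 (-0.27, adjusted p = 0.0241) and Mrpl28 (-0.26, adjusted p = 0.0246) in 8, and Mrpl27 (-0.27, adjusted p = 0.0308) in 5. Each of these 4 calls ended without HF 3, HF 4 or HFLF 6, and those of Mrps12, Mrpl28 and Mrpl27 also without HF 2. Mrpl27 lost its call without HFLF 3, HFLF 4 or HFLF 5 as well, and the highest adjusted p of the 4 was 0.0789. The count of 10 became 2 without HF 3, HF 4 or HFLF 6, 3 without HF 2, 5 without HFLF 3 and 6 without HFLF 1 or HFLF 4. It was 19 with DESeq2 and 27 with limma voom, and the share of all genes called in those fits is not given here. Mrps25 (-0.34, adjusted p = 0.0582) and Mrpl49 (-0.26, adjusted p = 0.0579) were not called by edgeR, and both were with DESeq2 (0.0275 and 0.0301) and limma voom (0.0106 and 0.0179). With LF libraries left out of the shared fit, Mrps25 was called without LF 1 and 2 (0.0445) and Mrpl49 without LF 1 to 4 (0.0338).

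**Figure D4:**
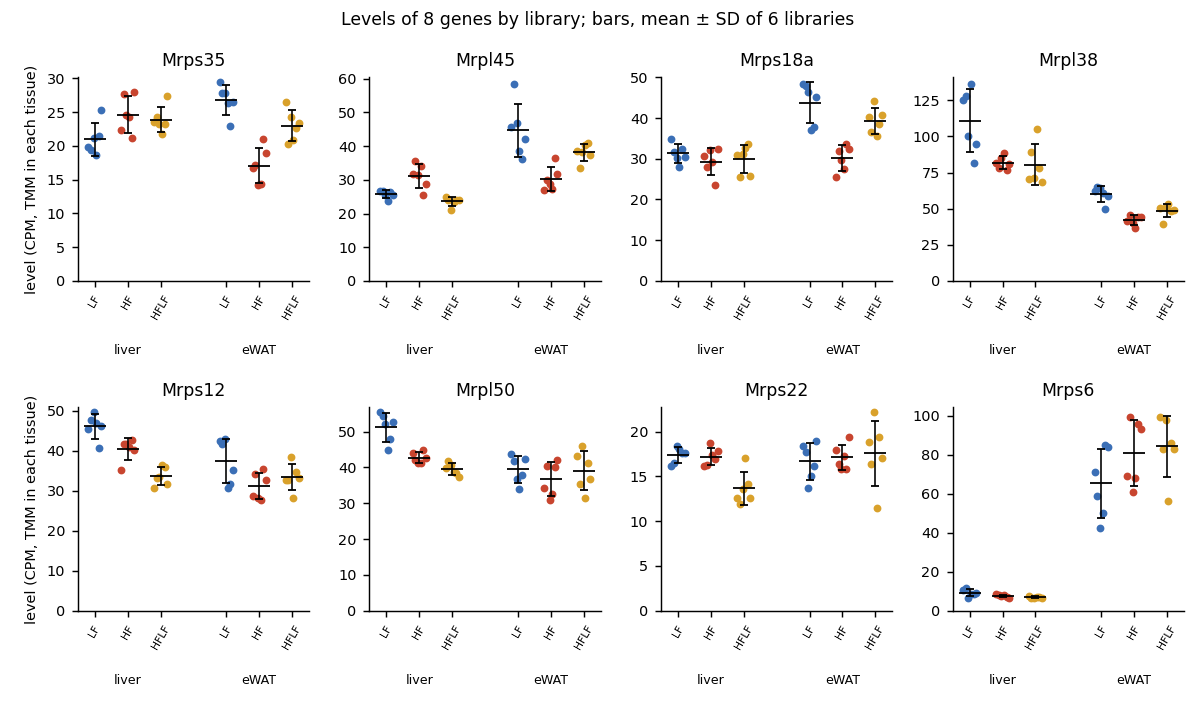
Levels (CPM after TMM scaling in each tissue) of 8 genes in every library, by tissue and diet, with bars for the mean ± SD of 6 libraries. In eWAT, Mrps35, Mrpl45, Mrps18a and Mrpl38 are lower in HF than in LF; in liver, Mrps12 and Mrpl50 are lowest in HFLF, and Mrps6 lies between 6.36 and 11.7 CPM in liver and between 42.6 and 99.7 in eWAT, on scales set in each tissue separately.

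The effect of the high-fat diet was compared between the tissues directly, as an interaction in a fit of all 36 libraries, and eWAT and liver differed in 40 members. For HF against LF, the eWAT effect was lower than the liver effect in 39 of 77 members and higher in 1, where 24.6% of all genes were called lower and 21.0% higher. The median of the members was -0.26, against -0.04 for all genes. Mrps35 had the largest difference, -0.94 ± 0.13 (adjusted p = 2.41e-06), from the values of -0.65 in eWAT and 0.23 in liver fitted in each tissue alone. Mrpl45 differed by -0.89 ± 0.12 (adjusted p = 2.83e-06), from -0.56 in eWAT and 0.28 in liver. Mrps5 differed by -0.77 ± 0.11 (adjusted p = 2.77e-06), from -0.45 in eWAT and 0.27 in liver. Mrps35, Mrpl45, Mrps5 and Mrpl49 were each called lower in eWAT and higher in liver in the fits of each tissue alone. The liver call of Mrps35 was near the threshold (adjusted p = 0.0411). Mrps30 differed by -0.76 ± 0.11 (adjusted p = 6.35e-06), Mrps16 by -0.72 ± 0.12 (adjusted p = 3.38e-05) and Mrpl9 by -0.58 ± 0.10 (adjusted p = 5.83e-05), all called in each of 24 fits with 1 library left out.

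Mrps6 was the member with a higher effect in eWAT, 0.53 ± 0.22 (adjusted p = 0.0454), and it stayed called in 12 of the 24 fits. Its call ended without LF 1, LF 2, HF 2, HF 3, HF 5 or HF 6 of liver, or LF 2, LF 3, LF 4, HF 2, HF 5 or HF 6 of eWAT (highest adjusted p 0.0953), with upper-quartile factors (0.0898), with limma voom (0.0561) and without liver LF 1 to 4 (0.46, adjusted p = 0.196). Slc5a3, which shares exon bases with Mrps6 on the same strand, had medians of 17 CPM in LF, 7 in HF and 7.28 in HFLF in liver, and 59.1, 59.6 and 90.8 in eWAT, on the scale of the joint fit. Mrps6 had medians of 11.6, 10.5 and 9.13 CPM in liver and 51.3, 64.2 and 67.2 in eWAT on that scale. The part of reads from Slc5a3 in the Mrps6 values was not tested. Mrpl38, which was lower on the high-fat diet in both tissues, did not differ between them beyond its error (-0.14 ± 0.14, adjusted p = 0.429). Mrps7 (-0.30, adjusted p = 0.111) and Mrps28 (-0.28, adjusted p = 0.0993; called with upper-quartile factors, 0.037) were not called. Without liver LF 1 to 4 the count was 18 in place of 40.

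**Figure D5:**
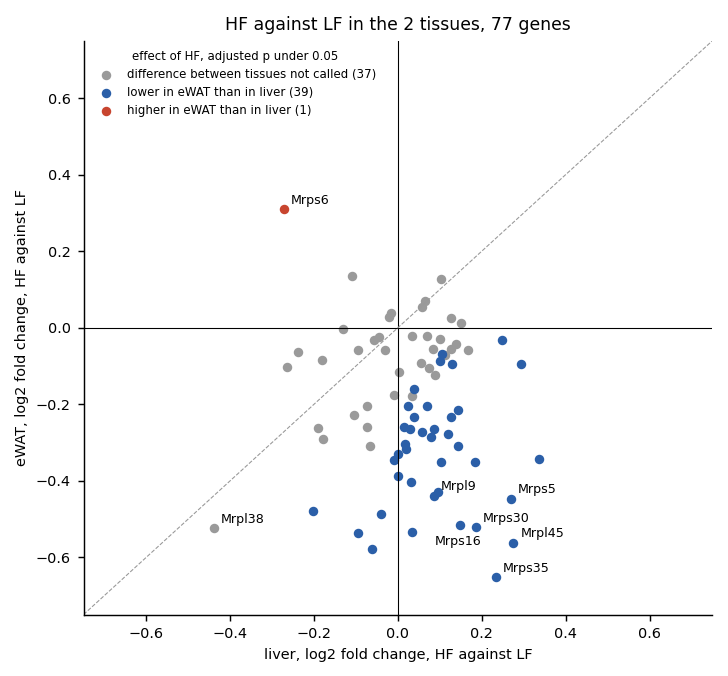
Log2 fold change of HF against LF in liver (x axis) and in eWAT (y axis) for the 77 genes, each fitted within its tissue, with colour for the test of the difference between tissues and a dashed line where both are equal. Most of the 39 blue genes lie below 0 in eWAT and near or above 0 in liver; Mrpl38 lies low in both, and Mrps6 is the 1 red gene.

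The other interactions ran as follows. For HFLF against HF, the eWAT difference was higher than the liver difference in 34 members and lower in none, where 8.78% of all genes were called higher and 9.18% lower. Over the 77 members the median was 0.31, against -0.01 for all genes. Mrpl45 differed by 0.75 ± 0.12 (adjusted p = 0.000263), Mrps15 by 0.66 ± 0.14 (adjusted p = 0.00272), and Mrps27 by 0.56 ± 0.12 (adjusted p = 0.00297). Mrps30 differed by 0.56 ± 0.11 (adjusted p = 0.00175), Mrps16 by 0.55 ± 0.12 (adjusted p = 0.00338) and Mrps5 by 0.46 ± 0.11 (adjusted p = 0.00424). Mrps22 (0.39, adjusted p = 0.0526) and Mrpl16 (0.37, adjusted p = 0.0698) were not called, and Mrps22 was without the 6 eWAT libraries (0.50, adjusted p = 0.0107). The 6 were called in each of 24 fits with 1 library left out, while the count of 34 became 19 without eWAT HF 4 and 20 without eWAT HFLF 3. This comparison uses the same HF libraries as the previous interaction.

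For HFLF against LF, 3 members were lower in eWAT relative to liver and 1 was higher, where 4.96% of all genes were called lower and 3.6% higher. The 4 were Mrps26 (-0.38, adjusted p = 0.0171), Mrps35 (-0.45, adjusted p = 0.0276), Mrps2 (-0.37, adjusted p = 0.0497) and Mrps6 (0.75, adjusted p = 0.0299). Mrps26 was called in all 24 fits with 1 library left out. Mrps35 lost its call without LF 2, LF 4 or HFLF 6 of liver or HFLF 2 of eWAT (highest adjusted p 0.0558), and Mrps6 without LF 1 or LF 2 of liver or LF 3, LF 4, HFLF 1 or HFLF 3 of eWAT (highest adjusted p 0.067). Mrps2 kept its call in 7 of the 24 fits: those without LF 3 or LF 6 of liver, or LF 4, LF 5, LF 6, HFLF 3 or HFLF 5 of eWAT. With all libraries kept, Mrps2 lost its call with RLE size factors (adjusted p = 0.0675), upper-quartile factors (0.0504) and the replicate block (0.0806). Mrps35 lost its call with the replicate block (0.0585). Mrpl47 (-0.39, adjusted p = 0.111) and Mrps22 (0.39, adjusted p = 0.0766) were not called. The count of 4 became 1 without liver LF 2, 2 without liver LF 1, liver HFLF 6, eWAT LF 3, eWAT HFLF 1 or eWAT HFLF 2, and 7 without liver LF 6 or eWAT LF 5. No member was called without liver LF 1 to 4, where Mrps26 had -0.24 (adjusted p = 0.446), Mrps35 -0.27 (0.538), Mrps2 -0.31 (0.392) and Mrps6 0.69 (0.349). Without the 6 eWAT libraries 1 was called, while Mrps26 had -0.42 (adjusted p = 0.0536), Mrps35 -0.45 (0.116) and Mrps2 -0.41 (0.0929).

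On the low-fat diet, the members were set apart between the tissues, but the direction of this comparison as a whole depended on the scaling. With TMM over all 36 libraries, 48 of 77 members were lower in eWAT than in liver and 11 were higher, where 38.3% of all genes were called lower and 40.4% higher, whereas library totals alone gave 10 lower and 56 higher, and 21 of the 59 calls kept their direction. The median of the members was -0.38 with TMM and 0.40 with library totals, while that of all genes was 0.02 and 0.81. Relative to all genes the members' median was therefore -0.40 with TMM and -0.41 with library totals.

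The 12 members named here kept their sign and call under the scalings tried and with each LF library left out. Mrpl38 had 110, 147 and 177 CPM in the lowest, median and highest liver library and 40.2, 49.7 and 51.9 in eWAT, on the scale of the joint fit (-1.59 ± 0.10, adjusted p = 1.43e-15). Mrpl15, the counterpart of bacterial L15, had 55.3, 58.0 and 62.9 CPM in liver and 20.0, 23.3 and 24.8 in eWAT (-1.38 ± 0.086, adjusted p = 4.56e-16). Mrps31 had 39.7, 43.2 and 49.1 CPM in liver and 14.5, 18.7 and 21 in eWAT (-1.27 ± 0.079, adjusted p = 5.13e-16). Mrpl50 (-1.09), Mrpl1 (-1.02) and Mrps12 (-1.01) followed, and none of these 6 overlapped between the tissues.

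Higher in eWAT, Mrps6 had 8.73, 11.6 and 15.1 CPM in liver and 34.2, 51.3 and 68.4 in eWAT (2.12 ± 0.16, adjusted p = 4.59e-14), the largest difference between the tissues among the 77 in either direction. Mrps6 shares 10.4% of its exon bases with Slc5a3 on the same strand, the gene of a myo-inositol transporter. Slc5a3 had 9.54, 17 and 21.7 CPM in liver and 27.7, 59.1 and 80.1 in eWAT on the low-fat diet, so it was also higher in eWAT in every library. How far reads of the shared bases enter the Mrps6 value was not tested. The other members named were Mrps36 (0.64), Mrps25 (0.56), Mrps15 (0.54), Mrpl33 (0.50) and Mrps26 (0.41). In the annotation, Mrps25 shares 69.8% of its exon bases with Nr2c2.

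The promoter letters did not separate the members that were lower in eWAT on the high-fat diet. Any of the 3 motifs was found for 53.6% of the called members with a window (15 of 28) and for 55.0% of those not called (22 of 40). The 5 windows printed above belong to called members, and they range from both ETS and YY1 letters in Mrps18a to none of the 3 in Mrpl45.

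Other genes of the pathway were described from 6 lists, and no list was tested against the shares of all genes called. For HF against LF these shares were 20.2% lower and 20.6% higher in eWAT, and 18.5% lower and 16.3% higher in liver. For HFLF against HF in eWAT they were 14.7% lower and 10.7% higher. The 5 mitoribosome proteins without the prefix gave 0 higher and 1 lower for HF against LF in eWAT, with a median of -0.21. The lower gene was Aurkaip1 (-0.24 ± 0.094, adjusted p = 0.0479), a call that ended without LF 1, LF 2, LF 3, LF 6, HF 1, HF 3 or HF 4 (highest adjusted p 0.114). Dap3 (-0.21, adjusted p = 0.0992), Gadd45gip1 (-0.23, adjusted p = 0.0627; -0.34 and 0.0183 without the 6 eWAT libraries), Ptcd3 (-0.12, adjusted p = 0.332) and Chchd1 (-0.11, adjusted p = 0.268) were not called. In liver, Gadd45gip1 was lower in HF (-0.31 ± 0.074, adjusted p = 0.00408) and in HFLF (-0.43 ± 0.074, adjusted p = 0.00125) than in LF, and neither was called without LF 1 to 4 (-0.25, adjusted p = 0.179, and -0.37, adjusted p = 0.117).

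Of 26 genes for mitoribosome assembly and rRNA modification, 11 were lower and 1 was higher in eWAT on the high-fat diet, with a median of -0.24. Mterf3, known as a regulator of mitochondrial transcription with a role in ribosome biogenesis, differed by -0.57 ± 0.097 (adjusted p = 0.00029), Ngrn, which stabilises a mitochondrial ribosomal RNA, by -0.52 ± 0.085 (adjusted p = 0.000206) and Malsu1, an assembly factor of the large subunit, by -0.44 ± 0.086 (adjusted p = 0.000774). Mrm1, an rRNA methyltransferase gene, was the higher one (0.34 ± 0.10, adjusted p = 0.0172), and its call was lost with limma voom (adjusted p = 0.0537), in a fit of the 2 groups alone (0.0523) and without the 6 eWAT libraries (0.071). In liver the same list had 6 higher and 1 lower in HF, where 16.3% of all genes were called higher and 18.5% lower. Among the higher ones was Mettl17 (0.44 ± 0.10, adjusted p = 0.00443, and 0.20 and 0.349 without LF 1 to 4). In eWAT, HFLF against HF gave 3 higher and 1 lower, with Mterf3 at 0.45 (adjusted p = 0.00398) and Ngrn at 0.37 (adjusted p = 0.00559, and 0.0525 without the 6 eWAT libraries). The 3 of 26 lay near the 10.7% of all genes called higher.

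Of 16 measured genes for translation factors and RNA stability, 5 were lower in eWAT on the high-fat diet and none was higher. They included Oxa1l (-0.26 ± 0.070, adjusted p = 0.00728), which inserts newly made chains into the inner membrane, Gfm2 (-0.35 ± 0.098, adjusted p = 0.00879), a recycling factor, and Lrpprc (-0.25 ± 0.073, adjusted p = 0.0108), which stabilises mitochondrial messages. The call of Lrpprc ended without the 6 eWAT libraries (-0.18, adjusted p = 0.122) and in a fit of only the 2 groups (adjusted p = 0.052). Tufm, the elongation factor, had -0.34 ± 0.12 (adjusted p = 0.0353) and lost its call without LF 1, LF 2, LF 3, LF 6, HF 1, HF 3, HF 4 or HF 6 (highest adjusted p 0.0993). Of 20 genes for aminoacyl-tRNA synthesis, 7 were lower and none higher, with Vars2 at -0.49 ± 0.087 (adjusted p = 0.000364), Iars2 at -0.45 ± 0.10 (adjusted p = 0.00225) and Fars2 at -0.43 ± 0.084 (adjusted p = 0.000728). In liver on the high-fat diet, these 2 lists had 3 and 5 higher genes and none lower, where 16.3% of all genes were called higher. Gatb was among them (0.55 ± 0.12, adjusted p = 0.00318, and 0.32 and 0.221 without LF 1 to 4). In eWAT, HFLF against HF gave 4 higher synthetase-list genes, Fars2 among them (0.34, adjusted p = 0.00751), and no called translation factor.

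Of 12 regulators of mitochondrial biogenesis, 3 were lower in eWAT on the high-fat diet and none was higher. The 3 of 12 lay near the 20.2% of all genes called lower. Ppargc1a, the gene of the coactivator PGC-1 alpha, fell by 1.24 ± 0.35 (adjusted p = 0.0101), and without the 6 eWAT libraries it had -0.66 (adjusted p = 0.136). Tfam, which packages and transcribes mitochondrial DNA, fell by 0.22 ± 0.062 (adjusted p = 0.00899). Nrf1 (-0.16, adjusted p = 0.225) and Gabpa (0.02, adjusted p = 0.839), genes of factors for the NRF1 and ETS letters, were not called. In liver, 1 of the 12 was higher and 3 were lower in HF, with a median of -0.23. Of all genes, 16.3% were called higher and 18.5% lower. The higher gene was Esrra (0.63 ± 0.12, adjusted p = 0.00129). Pprc1 (-1.17 ± 0.19, adjusted p = 0.000391) and Gabpb1 (-0.50 ± 0.096, adjusted p = 0.00118) were among the lower. Without LF 1 to 4, Esrra (0.32, adjusted p = 0.247), Pprc1 (-0.53, 0.0877) and Gabpb1 (-0.30, 0.167) were not called.

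Of the 10 mitochondrially encoded genes in the tables, 6 were lower in eWAT on the high-fat diet and none was higher, with a median of -0.60. They included mt-Nd6 (-0.92 ± 0.19, adjusted p = 0.00121), mt-Cytb (-0.73 ± 0.21, adjusted p = 0.0117) and mt-Nd5 (-0.68 ± 0.19, adjusted p = 0.00799), which encode respiratory chain subunits. In HFLF against HF, 3 were higher, with mt-Nd6 at 0.78 (adjusted p = 0.00728; 0.0589 without the 6 eWAT libraries). In liver the 2 lower genes on the high-fat diet were those of the ribosomal RNAs. For mt-Rnr2 the difference was -0.49 ± 0.15 (adjusted p = 0.0189; adjusted p = 0.0558 without LF 1), and for mt-Rnr1 it was -0.45 ± 0.16 (adjusted p = 0.0356), a call that ended without LF 1, LF 2, HF 1, HF 2, HF 4 or HF 5 (highest adjusted p 0.111). Without LF 1 and 2 they had -0.28 (adjusted p = 0.168) and -0.19 (0.33), and without LF 1 to 4 -0.34 (0.272) and -0.28 (0.327). With all libraries kept, mt-Rnr2 was not called with limma voom (adjusted p = 0.0543). The call of mt-Rnr1 was lost with upper-quartile factors (0.0622), library totals (0.0839), limma voom (0.109) and the replicate block (0.0793). It was also lost in a fit of only the 2 groups (0.0664). Whether the libraries were selected for polyadenylated RNA is not stated in the labels.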

How the data were processed

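RNA of liver and eWAT was sequenced on a NovaSeq 6000, per the labels' protocols, with 6 libraries per diet and tissue. STAR and GRCm38.p6 are named per the submitters' processing notes, and no source used here names the counter, annotation release or strand setting. The authors deposited whole-number counts per gene, 1 table per tissue, holding genes with a CPM above 0.5 in at least 6 of 18 libraries; the deposited RPKM tables were not used. Symbols came from GENCODE M21 and matched 14034 of 14052 liver and 16668 of 16690 eWAT identifiers.

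Counts were tested in R 4.3.3 with edgeR 4.0.16 (TMM, robust quasi-likelihood test, 3 diets in 1 fit per tissue, Benjamini-Hochberg adjustment over all genes, adjusted p 0.05). Differences between tissues came from 1 fit of 36 libraries over 13206 genes. The scripts were tested on simulated data. Alternatives used RLE, upper-quartile and library-total scaling, DESeq2 1.42.0, limma 3.58.1 (voom), 2 low-count filters, only the 2 groups compared, a replicate block, and fewer libraries. Library totals alone were added after seeing the data.

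The gene set came from the symbol rule, while the members to name and the lists were chosen with earlier results of these data known. Members named are, per comparison, up to 6 called ones with the smallest p in each direction and up to 2 uncalled ones with the largest change, the 3 highest and 3 lowest per kilobase, and a fixed set of Mrpl12, Mrps12, Mrps18a, Mrps18b, Mrps18c, Mrpl54, Mrps5, Mrps36 and Mrps30; of the 6 lists, up to 3 called genes. Other members named were chosen after their values were seen. Lists covered mitoribosome proteins without the prefix, assembly and rRNA modification, translation factors and RNA stability, aminoacyl-tRNA synthesis, biogenesis regulators and mitochondrially encoded genes. Where 6 libraries of a group are described, the lowest, median and highest are given.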

Additional observations from a re-analysis of the deposited data

Results flagged for a closer look

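Single libraries stood far from the other 5 of their group in 4 of the 111 groups of levels checked, by the gap to the nearest library as a share of the group's range (critical value 0.625). These were Mrpl38 in eWAT HFLF 2 (0.629), Mrpl49 in liver HF 5 (0.707), Mrpl45 in liver HFLF 3 (0.649) and Mrps12 in liver HF 1 (0.657). Chance alone marks about 1 in 20 groups.

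Effects differed between eWAT and liver in the interaction test in 3 contrasts, given here for the members named by the rule as the eWAT log2 difference minus that of liver. For HF against LF, where 40 members were called in all, the named ones were Mrps35 (-0.94), Mrpl45 (-0.89), Mrps5 (-0.77), Mrps30 (-0.76), Mrps16 (-0.72), Mrpl9 (-0.58) and Mrps6 (0.53). For HFLF against LF the called members were Mrps6 (0.75), Mrps35 (-0.45), Mrps26 (-0.38) and Mrps2 (-0.37). For HFLF against HF, where 34 were called in all, the named ones were Mrpl45 (0.75), Mrps15 (0.66), Mrps27 (0.56), Mrps30 (0.56), Mrps16 (0.55) and Mrps5 (0.46). These contrasts share libraries.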

How the results depend on the processing

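Counts of called members in which the processing mattered follow, without the share of all genes called under each setting. Whether a change in these counts went beyond the change in all calls is therefore not stated here. The cause was not tested. Where libraries were left out, the smaller number of libraries and the loss of those particular libraries cannot be told apart. In liver, HF against LF gave 22 members with upper-quartile factors, 24 with library totals alone, 6 in a fit of only the 2 groups compared, 7 without LF 1 and 2 and 0 without LF 1 to 4, in place of 11. HFLF against LF in liver gave 8 with upper-quartile factors, 10 with library totals, 7 without LF 1 and 2 and 0 without LF 1 to 4, in place of 15. HFLF against HF in liver gave 19 with DESeq2, 27 with limma voom, 18 when tested among genes whose mean CPM was 5 or more and 6 with the replicate block, in place of 10. In eWAT, HFLF against LF gave 2 with DESeq2 and 3 with limma voom, in place of 0, and HFLF against HF gave 6 without 6 libraries, in place of 11. The interaction for HF against LF gave 18 without liver LF 1 to 4, in place of 40. That for HFLF against LF gave 9 with library totals, 10 with limma voom, 2 with the replicate block, 0 without liver LF 1 to 4 and 1 without 6 eWAT libraries, in place of 4. The median of the members moved in liver HF against LF to 0.11 with upper-quartile factors and 0.14 with library totals, in liver HFLF against LF to -0.05 and 0.01, and in eWAT against liver to -0.19 and 0.40. With 1 library left out, counts ran from 6 to 14, 8 to 18 and 2 to 15 in liver (HF against LF, HFLF against LF, HFLF against HF), from 24 to 37, 0 to 2 and 7 to 15 in eWAT, from 34 to 44, 1 to 7 and 19 to 42 for the interactions and from 58 to 63 between tissues. Replicate numbers did not pair the libraries by the rule that every correlation of same-numbered libraries exceed 0.1. These ran from -0.234 to 0.232 for HF and LF in liver, from -0.569 to 0.283 for HF and LF in eWAT, and between liver and eWAT from 0.0426 to 0.155 on LF, from -0.0365 to 0.124 on HF and from 0.013 to 0.106 on HFLF; a library correlated best with its own number in 5 of 6 on LF between tissues, and in 0 to 2 of 6 in the other 8 pairs of groups. With the replicate block the counts were 9, 12 and 6 in liver, 31, 0 and 10 in eWAT, 37, 2 and 23 for the interactions and 58 between tissues. Called members turned sign with library totals alone between tissues, where 21 of 59 calls kept their direction. Among the named genes, signs turned only in uncalled differences of HF against LF in eWAT. Mrps18b had 0.029 under library totals, 0.027 with limma voom, 0.002 with DESeq2, 0.006 with only 2 groups and 0.004 with the replicate block, and -0.042 to 0.08 with 1 library left out. Mrps36 had 0.009 under library totals and -0.096 to 0.02 with 1 library left out. Gabpa had -0.034 under upper-quartile factors and with limma voom, and -0.021 to 0.061 with 1 library left out. Of the values of named genes under settings with all libraries, 952 kept their direction and side of the threshold, 32 lost and 27 gained a call, and 8 changed sign. DESeq2 was not run for the interactions or between tissues. In bulk counts, depth limits low members such as Mrps36 most.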
